A study of Mus musculus with 6 samples.

Results

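Potassium channel genes were followed in the hearts of mouse fetuses at embryonic days 16.5 and 18.5 (E16.5 and E18.5), shortly before birth. The members were the rows of the deposited gene table whose symbol begins with Kcn and a lower-case letter, that are marked protein-coding and that hold at least 60 counts summed over the 6 libraries. This gave 70 genes of 31529 in the table and of 90 protein-coding Kcn genes. The other 20 lay under the count minimum. At its edge, Kcnk13 held 70 counts and Kcnip1 76, while Kcnh6 held 57 and Kcnv1 55. The long noncoding RNA Kcnq1ot1 and 3 further Kcn-named noncoding rows were not members. The members were thus chosen by their summed count over both stages, which does not use the difference between stages.

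The study sequenced polyadenylated RNA of whole hearts from wild-type ICR mice, an outbred stock, without any treatment. There were 3 libraries at E16.5 and 3 at E18.5, described by the submitters as biological replicates. The sources used here do not say if hearts were pooled or how litters were shared out. The p-values therefore set the stage difference against the spread between these libraries, which may differ from the spread between fetuses. In such bulk tissue, fewer cells of a type and less RNA per cell cannot be told apart.

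Potassium channels let potassium leave the heart muscle cell, which ends the action potential and holds the resting potential. Voltage-gated channels carry the transient outward and delayed rectifier currents, inward rectifiers (Kcnj genes) hold the resting potential, tandem pore channels (Kcnk genes) carry background current, and others open with internal calcium or sodium. Auxiliary subunits carry no pore and change the trafficking and gating of pore-forming subunits. In rodents the outward currents grow around and after birth and the action potential shortens.

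The coding sequences of the pores held a signature that those of the auxiliary subunits lacked. Pore-forming potassium channel subunits share a short selectivity filter signature, in which threonine or serine, then valine, isoleucine, leucine, methionine or threonine, precede glycine, tyrosine or phenylalanine, and a closing glycine. It was searched in the reading frame of the longest coding transcript of each gene in GENCODE M21 (GRCm38). All 55 pore-forming members held it and 0 of the 15 auxiliary members did, against 0.918% of the 21461 protein-coding genes searched, members included. The classes were assigned from gene symbols and the signature is a known trait of pores, so this describes the members and tests nothing. Of the 8 tandem pore members, 6 held it more than once, and 0 members of the other pore classes did. Kcnk1 and Kcnk6 held 1 match each. A filter with a residue other than tyrosine or phenylalanine would not be counted, so this does not show that they lack a further filter. The lines below show the filter for members of different currents, as coding DNA from 5′ to 3′ over 45 bases, with the 5 codons of the signature in capitals.
Kcnh2, rapid delayed rectifier, codon 626 of 1162: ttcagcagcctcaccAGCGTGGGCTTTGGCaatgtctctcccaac
Kcnq1, slow delayed rectifier, codon 311 of 668: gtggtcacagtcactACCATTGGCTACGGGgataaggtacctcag
Kcna5, ultrarapid outward, codon 469 of 602: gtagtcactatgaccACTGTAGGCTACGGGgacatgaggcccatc
Kcnj2, inward rectifier, codon 142 of 428: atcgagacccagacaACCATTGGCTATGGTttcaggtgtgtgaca
Kcnj11, ATP-sensitive, codon 130 of 390: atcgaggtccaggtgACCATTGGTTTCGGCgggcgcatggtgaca
Kcnk3, tandem pore, codon 93 of 409: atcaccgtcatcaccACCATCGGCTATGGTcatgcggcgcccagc
Kcnk3, tandem pore, codon 199 of 409: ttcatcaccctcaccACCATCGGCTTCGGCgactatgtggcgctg
Kcnt2, sodium-activated, codon 242 of 1135: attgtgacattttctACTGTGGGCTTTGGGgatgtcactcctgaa
Codon numbers count from the start codon and give the first codon of the signature. Kcnk3 carries the signature 2 times in a single subunit, and the other genes shown carry it 1 time.

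The libraries held 61443414 to 77237333 counts. Genes of the mitochondrial chromosome took from 19.9% of the counts (E16.5 replicate 2) to 41.4% (E16.5 replicate 1), a share that lowers the FPKM (sequenced fragments relative to transcript length and library size) of every other gene in a library. Xist, the RNA of the inactive X chromosome, ranged from 965 to 1353 CPM in 2 E16.5 libraries (replicates 2 and 3) and 1 E18.5 library (replicate 3), and the other 3 libraries had no more than 14.6 CPM. CPM are counts scaled to library size after TMM scaling, which corrects for differences in library composition. Heart muscle markers were present in every library, with Tnnt2 at 5387 ± 681 CPM in the E16.5 libraries and 5614 ± 486 CPM in those of E18.5 (SD, n = 3).

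Transcript levels, which were compared between genes on the FPKM scale, were concentrated in a few channel genes. Mean FPKM over the 6 libraries ran from 0.0208 (Kcnb2) to 18.3 (Kcnh2) with a median of 0.347. Of the 70 members, 3 reached 10 FPKM, 7 reached 5, 20 reached 1 and 15 stayed below 0.1. Kcnh2, the pore of the rapid delayed rectifier, stood at 18.3 ± 1.86 FPKM (SD, n = 6), above 92.0% of all protein-coding genes. Kcng2, a modifier subunit that forms channels only together with other voltage-gated subunits, stood at 17.7 ± 3.67 FPKM. Kcne1, the small subunit of the slow delayed rectifier, stood at 15.3 ± 6.32 FPKM. These 3 genes made up 39.4% to 42.6% of the summed FPKM of the members in each library. Kcnh2 was above Kcng2 in 4 of the 6 libraries, so the order of the highest pair was within the spread between libraries.

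The next genes in order of FPKM were Kcnj11 (8.55 ± 1.51), Kcnip2 (7.28 ± 3.43), Kcnk3 (6.38 ± 1.36), Kcne3 (5.27 ± 0.756), Kcnq1 (4.61 ± 1.09), Kcnj2 (4.39 ± 0.779), Kcnj8 (4.14 ± 1.37) and Kcnj5 (3.40 ± 1.19), each as mean and SD over 6 libraries. Neighbours in this order differed by less than the larger SD of the pair. The summed FPKM of the members was lowest in E16.5 replicate 1 (90.9), the library with the largest mitochondrial share, and was 146 in E16.5 replicate 2, the library with the smallest. FPKM levels therefore rank the genes here, and stages are compared on CPM.

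**Figure D1:**
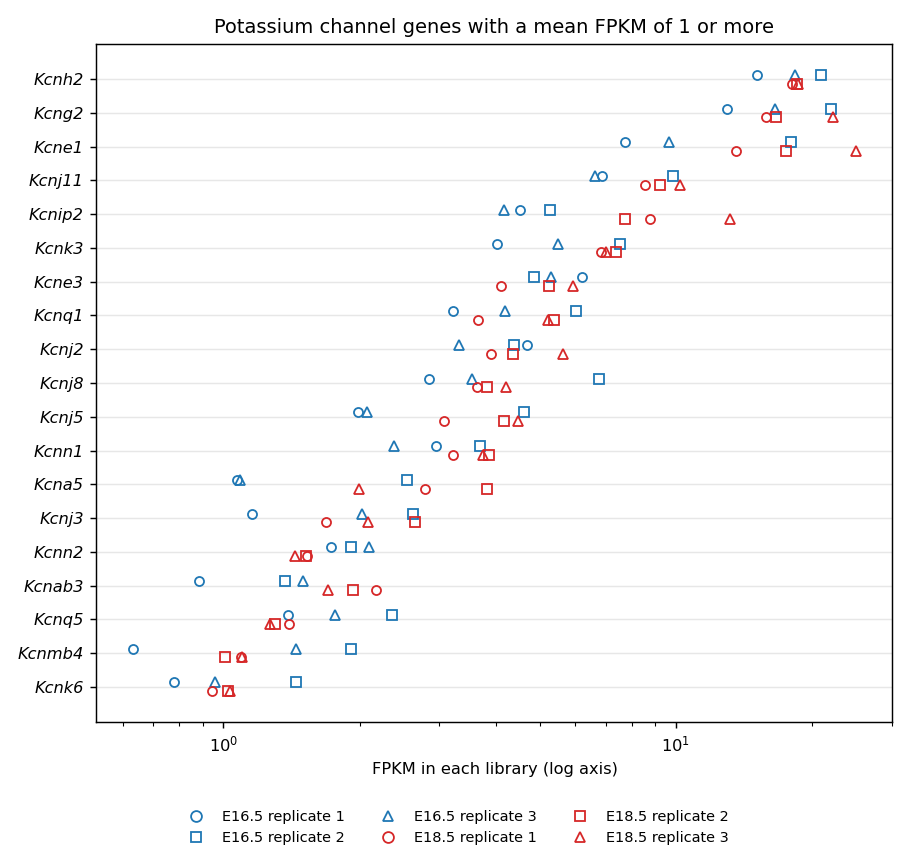
FPKM (log axis) of 19 of the 20 potassium channel genes with a mean of at least 1, ordered by mean, with 1 symbol per library, E16.5 in blue and E18.5 in red. Kcnh2, Kcng2 and Kcne1 are at the top, and the E18.5 symbols of Kcnip2 lie to the right of all E16.5 symbols.

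For most potassium channel genes the libraries of the stages overlapped, and of the 10 with the smallest p, 7 were higher at E18.5. Kcnt2, a sodium-activated channel, was 2.06-fold higher at E18.5, and Kcnip2, the auxiliary subunit of the transient outward current, 1.96-fold. Kcnq5, a voltage-gated channel of the M-current family, and Kcnn2, a small-conductance calcium-activated channel, were lower. None of these differences passed the adjustment over all genes in edgeR.

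All 70 members entered the edgeR quasi-likelihood test, and 0 had a Benjamini-Hochberg adjusted p under 0.05, against 0.15% of the 19959 genes tested (0.0952% higher and 0.0551% lower). Without adjustment, p was under 0.05 in 10 members (14.3%), against 9.53% of all genes tested, with 7 higher at E18.5 (4.83% of all genes) and 3 lower (4.7% of all genes). DESeq2 called 3 members (4.29%), Kcnip2 and Kcnt2 among them, and 1.09% of all 31529 genes. The 31529 include the genes of low count that the edgeR filter left out, so these 2 shares are not on like sets. An edgeR fit with each library's mitochondrial share as a covariate called 1 member, against 0.922% of all genes. Limma on log2(FPKM + 0.1) called 0. The stages did not overlap in 13 members (18.6%), against 16.5% of all genes, with E18.5 above in 10 (8.45% of all genes) and below in 3 (8.02% of all genes). The median log2 change was 0.017 over the members, 38 higher and 32 lower, and -0.0019 over all genes tested. Without E16.5 replicate 2 the members at an unadjusted p under 0.05 numbered 17, where the same fit gave 23.4% of all genes, and 0 passed adjustment.

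**Figure D2:**
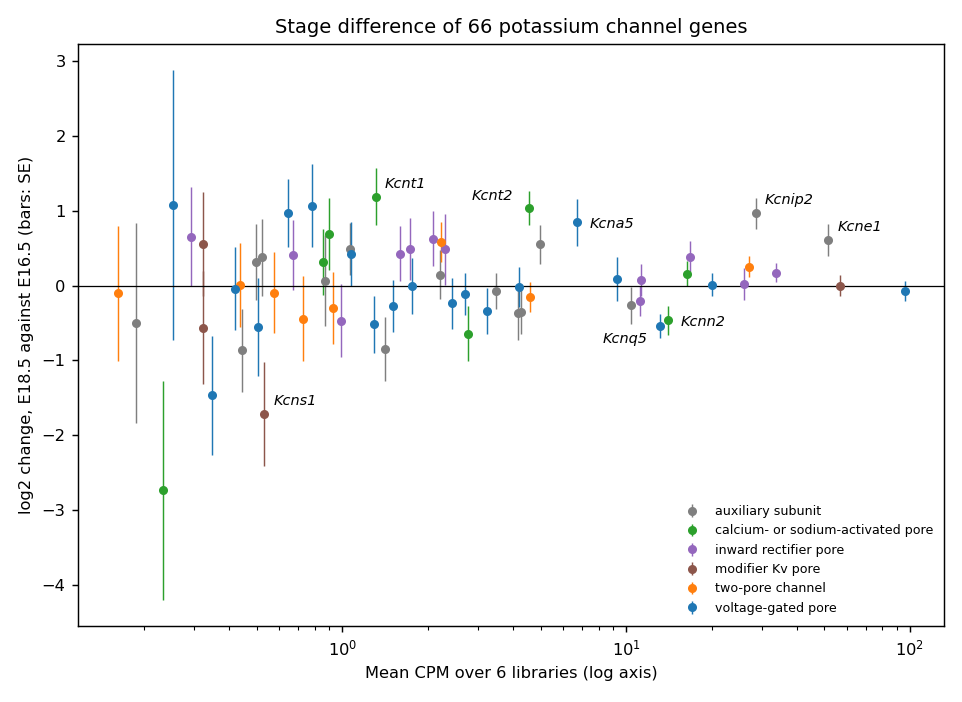
Log2 change from E16.5 to E18.5 (vertical axis, bars are SE) against mean CPM over the 6 libraries (log axis) for 66 of the 70 members, coloured by channel class. The 8 named genes have an unadjusted p under 0.05; the bars are widest at the left, below about 1 CPM.

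Values by library are given in the order of the replicate numbers, and a pair of means with SD gives E16.5 first. The sources used here do not say if strand was used in counting. The transient outward current needs a pore and an auxiliary subunit. Kcnip2 (GRCm38 chromosome 19, 45791839 to 45816061), the calcium-binding subunit that raises the surface expression of Kcnd pores, was at 22.6, 17.3 and 18.3 CPM in the E16.5 libraries and 37.8, 28.4 and 47.7 CPM in those of E18.5 (replicates 1, 2 and 3). The stages did not overlap, and the spread was wider at E18.5. The log2 change was 0.97 ± 0.21 (SE) with an edgeR adjusted p of 0.185, and DESeq2 gave 0.96 with an adjusted p of 0.00365, the lowest over the alternatives, where it ran up to 0.579. Of its pores, Kcnd2 was at 1.77 ± 0.768 and 1.76 ± 0.0874 CPM and Kcnd3 at 4.20 ± 1.14 and 4.15 ± 0.714 CPM in the earlier and later stage (SD, n = 3), and both overlapped. Kcna4, the pore of the slowly recovering transient outward current, was at 3.62 ± 1.34 and 2.85 ± 0.169 CPM, a log2 change of -0.34 ± 0.30 (adjusted p = 0.737 in edgeR).

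The promoter of Kcnip2 is shown because that gene had the smallest edgeR p of the members with an entry in the RefSeq promoter table (GRCm38.p6), and that of Kcnt2 because it followed. In all, 49 of the 70 members were in that table, with 69 start sites searched. The sequences are the 250 bases before the start site on the gene's own strand, chr19:45816064-45816313 on the minus strand for Kcnip2 and chr1:140245468-140245717 on the plus strand for Kcnt2.
Kcnip2: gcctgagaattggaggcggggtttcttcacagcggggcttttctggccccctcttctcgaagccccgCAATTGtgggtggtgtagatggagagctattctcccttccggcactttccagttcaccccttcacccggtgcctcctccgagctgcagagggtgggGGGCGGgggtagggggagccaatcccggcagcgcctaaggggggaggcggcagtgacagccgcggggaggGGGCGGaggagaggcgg
Kcnt2: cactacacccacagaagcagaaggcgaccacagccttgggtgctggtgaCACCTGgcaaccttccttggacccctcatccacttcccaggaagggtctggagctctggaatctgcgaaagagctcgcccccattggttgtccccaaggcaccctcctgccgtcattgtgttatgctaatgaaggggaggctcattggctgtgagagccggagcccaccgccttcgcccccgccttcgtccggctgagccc
Capitals mark matches on either strand to the GC box GGGCGG and the E-box CANNTG, which did not overlap each other. The Kcnip2 window held the GC box 87 and 17 bases before the start and 1 E-box, and the Kcnt2 window held 1 E-box. The TATA box (TATAAA), the GATA motif (GATAA), the Iroquois motif (ACANNTGT, itself an E-box) and the Mef2 consensus had no match in either window. Among all 32851 windows of this length in the table, 32.7% held the GC box, 66.2% the E-box, 12.4% the TATA box, 22.6% the GATA motif, 6.31% the Iroquois motif and 2.92% the Mef2 consensus. Among the 69 windows of members, 42.0% held the GC box and 72.5% the E-box, 17.4% held the GATA motif, while the Iroquois motif was in 3, and the TATA box and the Mef2 consensus in 1 each.

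Kcna5 carries the ultrarapid outward current and is strongest in atrial muscle of many species. It was at 4.18, 6.51 and 3.73 CPM in the E16.5 libraries and 9.36, 10.96 and 5.61 CPM in those of E18.5. The stages overlapped, since E18.5 replicate 3 lay below E16.5 replicate 2. The log2 change was 0.85 ± 0.31 with an edgeR adjusted p of 0.44. Markers of atrial muscle were higher at E18.5 as well. Their summed level ran from 1819 to 2782 CPM at E16.5 and from 3650 to 4246 CPM at E18.5, 4 of 6 were higher at an unadjusted p under 0.05, 0 passed adjustment and 0 were at 0 in all libraries. The part of atrial tissue in the Kcna5 values was not tested. Kcna2 and its partner Kcnab1, an oxidoreductase-like subunit of Kcna channels, were low, at 0.435 ± 0.0534 and 0.854 ± 0.171 CPM and at 0.882 ± 0.0822 and 1.24 ± 0.103 CPM. In both genes the 3 E18.5 libraries lay above the 3 of E16.5 (adjusted p = 0.547 and 0.681 in edgeR).

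In the delayed rectifiers the pores overlapped between stages and the small subunit of the slow current had the larger difference. Kcnh2 was at 99.5, 90.6 and 106 CPM in the E16.5 libraries and 102, 89.8 and 88.7 CPM in those of E18.5, a log2 change of -0.076 ± 0.13. Kcnq1, the pore of the slow delayed rectifier, was at 20.1 ± 2.06 and 20.2 ± 2.38 CPM. Both genes overlapped between stages. Kcne1 (chromosome 16, 92345982 to 92359468), which slows and enlarges the current of Kcnq1, was at 33.7, 51.6 and 36.9 CPM in the E16.5 libraries and 51.2, 56.4 and 79.2 CPM in those of E18.5. E16.5 replicate 2 lay just above E18.5 replicate 1, and the log2 change was 0.61 ± 0.22 with an edgeR adjusted p of 0.428. Kcne2, a small subunit that can join Kcnh2, was low at 0.453 ± 0.0877 and 0.590 ± 0.154 CPM. Exons of Kcnq1 share 121 bases with Kcnq1ot1 on the other strand, which held 276% of the CPM of Kcnq1. Kcnq1ot1 stood at 93.2, 37.6 and 81.4 CPM in the E16.5 libraries and 55.3, 28.4 and 37.9 CPM in those of E18.5. Within each stage its libraries ran in the opposite order to those of Kcnq1, and its part in the Kcnq1 values was not tested.

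Kcnq5, a voltage-gated channel known from brain and smooth muscle, was at 14.5, 16.2 and 16.2 CPM in the E16.5 libraries and 12.6, 10.04 and 9.60 CPM in those of E18.5. Every E18.5 library lay below every E16.5 library. The log2 change of Kcnq5 was -0.54 ± 0.16 (adjusted p = 0.352 in edgeR). Smooth muscle markers were higher at E18.5, with a summed level of 466 to 618 CPM at E16.5 and 705 to 791 CPM at E18.5. Of these 6 markers, 3 were higher at an unadjusted p under 0.05, 0 passed adjustment and 0 were at 0, and their part in the Kcnq5 values was not tested. Kcnc4 (0.505 ± 0.271 and 1.06 ± 0.366 CPM) and Kcnb2 (0.511 ± 0.224 and 0.183 ± 0.144 CPM) overlapped between stages.

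**Figure D3:**
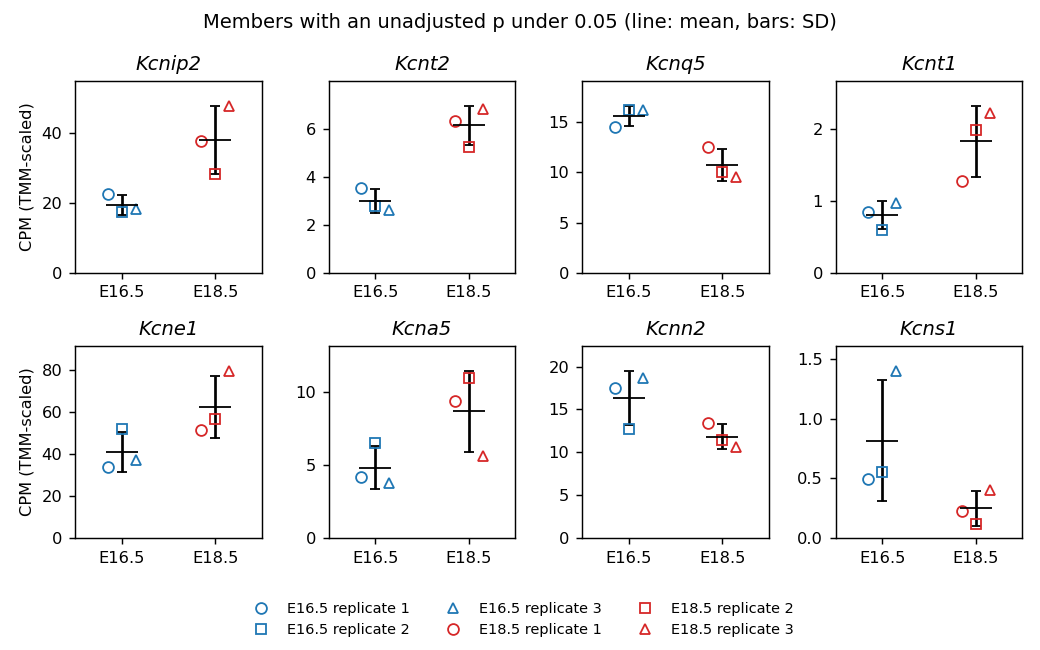
CPM in each library for 8 of the 10 members with an unadjusted p under 0.05, ordered by p; lines are means and bars SD over 3 libraries. Kcnip2, Kcnt2 and Kcnt1 lie higher in every E18.5 library, Kcnq5 and Kcns1 lower, and Kcne1, Kcna5 and Kcnn2 overlap.

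Inward rectifiers had no member at an unadjusted p under 0.05, and their lowest edgeR adjusted p was 0.594. The log2 change was above 0 in 10 of the 12 (class median 0.40), and in 9937 of the 19959 genes tested. Kcnj2, the main pore of the resting inward rectifier current, was at 34.7, 21.3 and 21.5 CPM in the E16.5 libraries and 24.9, 23.9 and 30.2 CPM in those of E18.5. The E18.5 libraries all fell inside the E16.5 range. The other pores of that current were lower in level, Kcnj12 at 1.36 ± 0.577 and 1.83 ± 0.121 CPM, Kcnj4 at 1.64 ± 0.491 and 2.54 ± 0.942 CPM, and Kcnj14 at 1.44 ± 0.620 and 2.02 ± 0.464 CPM. Each of those 3 overlapped between stages. When 1 library was left out, the log2 change ran from 0.23 to 0.83 for Kcnj12 and from 0.28 to 0.90 for Kcnj4. Both were largest without E16.5 replicate 2, and were 0.43 and 0.63 with all libraries. Kcnj14 has a copy, Gm5522, with 99.1% identity over 1242 bases, which held 19 counts in all against 718 for Kcnj14.

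Kcnj3 and Kcnj5 form the acetylcholine-gated channel through which the vagus slows the atria and the sinus node. Kcnj3 was at 8.21, 12.2 and 12.6 CPM in the E16.5 libraries and 10.3, 13.9 and 10.7 CPM in those of E18.5. Kcnj5 was at 12.6, 19.3 and 11.6 CPM in the E16.5 libraries and 16.8, 19.6 and 20.6 CPM in those of E18.5, a log2 change of 0.39 ± 0.21 (adjusted p = 0.594 in edgeR). E16.5 replicate 2 was the high E16.5 library for Kcnj5, and without it the log2 change was 0.65 with an edgeR adjusted p of 0.0661. Over the alternatives the adjusted p of Kcnj5 ran up to 0.971. When 1 library was left out, its log2 change ran from 0.24 to 0.65. In the ATP-sensitive channel, which opens when cellular ATP falls, the muscle pore Kcnj11 was at 34.3, 32.2 and 29.0 CPM in the E16.5 libraries and 36.8, 34.0 and 36.9 CPM in those of E18.5. Kcnj8, its pore in vascular mural cells, was at 12.0 ± 2.98 and 10.4 ± 0.576 CPM. The pericyte markers summed to 245 to 297 CPM at E16.5 and 333 to 372 CPM at E18.5, with 1 of 6 higher at an unadjusted p under 0.05 and 0 passing adjustment, while Kcnj8 overlapped between stages.

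Among tandem pore channels, 0 of 8 reached an unadjusted p under 0.05. Kcnk3, an acid-sensitive background channel prominent in atrial muscle, was at 21.7, 26.7 and 26.0 CPM in the E16.5 libraries and 31.8, 29.4 and 27.4 CPM in those of E18.5. Its stages did not overlap, and the log2 change was 0.25 ± 0.14 (adjusted p = 0.598 in edgeR). Kcnk2, a stretch-sensitive background channel, was at 1.82, 1.53 and 2.02 CPM in the E16.5 libraries and 2.93, 2.74 and 2.35 CPM in those of E18.5, also without overlap, a log2 change of 0.58 ± 0.27 (adjusted p = 0.542 in edgeR). Kcnk1 (0.841 ± 0.549 and 0.618 ± 0.0893 CPM) and Kcnk6 (4.84 ± 0.499 and 4.36 ± 0.202 CPM) overlapped between stages. Gm9899 on the other strand overlaps exons of Kcnk3 and held 43.3% of its CPM.

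Channels opened by internal sodium or calcium include Kcnt2, Kcnt1 and the Kcnn family. Kcnt2 (chromosome 1, 140246158 to 140612067) was at 3.54, 2.78 and 2.62 CPM in the E16.5 libraries and 6.32, 5.26 and 6.84 CPM in those of E18.5, and its relative Kcnt1 at 0.845, 0.591 and 0.961 CPM and at 1.28, 1.98 and 2.22 CPM. Both were without overlap, with every E18.5 library above every E16.5 library. The log2 changes were 1.04 ± 0.23 for Kcnt2 (adjusted p = 0.185 in edgeR, and 0.0117 in DESeq2 to 0.648 over the alternatives) and 1.19 ± 0.38 for Kcnt1 (adjusted p = 0.372 in edgeR). Kcnn2 was at 17.6, 12.7 and 18.6 CPM in the E16.5 libraries and 13.4, 11.5 and 10.6 CPM in those of E18.5, a log2 change of -0.47 ± 0.19 (adjusted p = 0.486 in edgeR). E16.5 replicate 2 lay within the E18.5 range, and without it the log2 change of Kcnn2 was -0.61. When 1 library was left out, that change ran from -0.61 to -0.37. Kcnn1 was at 15.5 ± 2.72 and 17.3 ± 0.437 CPM and Kcnn3 at 3.38 ± 0.998 and 2.17 ± 0.767 CPM.

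The large-conductance channel of smooth muscle was represented by its pore and subunits. Its pore Kcnma1 was at 0.763 ± 0.223 and 0.949 ± 0.270 CPM and its smooth muscle subunit Kcnmb1 at 0.850 ± 0.553 and 0.892 ± 0.118 CPM. Kcnmb4, another subunit of that channel, was at 4.78 ± 1.66 and 3.76 ± 0.462 CPM. Kcnu1, a relative known from sperm, was at 0.415, 0.148 and 0.656 CPM at E16.5, and had 0 counts in E18.5 replicates 1 and 2 and 0.179 CPM in E18.5 replicate 3.

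Of the modifier subunits, Kcng2 was at 52.7, 58.7 and 59.2 CPM in the E16.5 libraries and 55.4, 49.9 and 65.3 CPM in those of E18.5, with full overlap and a log2 change of 6.16e-04 ± 0.14. Kcns1, another modifier, was at 0.494, 0.554 and 1.40 CPM in the E16.5 libraries and 0.225, 0.114 and 0.402 CPM in those of E18.5. Its stages did not overlap, and E16.5 replicate 3 was far above the other libraries. The log2 change was -1.72 ± 0.70 (adjusted p = 0.487 in edgeR). Beside Kcng2 at 17.7 FPKM, the other modifiers were at 0.174 (Kcns1), 0.0659 (Kcng1) and 0.0624 FPKM (Kcnf1).

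Auxiliary subunits beside Kcnip2 and Kcne1 had larger p. Kcnab3, a subunit of Kcna channels, was at 3.44, 3.51 and 5.14 CPM in the E16.5 libraries and 7.32, 5.57 and 4.83 CPM in those of E18.5, a log2 change of 0.55 ± 0.26 (adjusted p = 0.546 in edgeR). Kcne3 was at 11.3 ± 3.65 and 9.43 ± 0.910 CPM and Kcnip3 at 3.56 ± 0.714 and 3.40 ± 0.150 CPM. Kcne1l, an X-linked relative of Kcne1, was at 1.005, 2.44 and 2.02 CPM in the E16.5 libraries and 0.720, 1.35 and 0.967 CPM in those of E18.5 (adjusted p = 0.569 in edgeR). At E16.5 the libraries with high Xist were the higher ones for Kcne1l, at E18.5 the one with high Xist was in the middle, and the part of sex in its values was not tested.

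A further 27 members, among them Kcne4, Kcnh7, Kcnd1, Kcnj15, Kcnk5, Kcnn4 and Kcnj10, lay outside the groups above. Their mean FPKM ran from 0.0243 to 0.786. Their log2 changes ran from -0.87 (Kcnrg) to 1.08 (Kcna7), with 12 higher and 15 lower, and their edgeR adjusted p from 0.638 to 0.997. Kcnj9 lay above in every E18.5 library and Kcnrg below. Exons of Kcnh7 share 696 bases with Gca on the other strand, which held 205% of its CPM, exons of Kcnj6, Kcnip4 and Kcnk4 also overlap genes with a higher CPM, so these 4 levels are uncertain.

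Within a library, ratios of FPKM do not depend on how the library was scaled. They were chosen after the values had been seen, and 7 were computed. Kcne1 to Kcnq1 was 2.40, 3.00 and 2.31 in the E16.5 libraries and 3.72, 3.26 and 4.79 in those of E18.5. All E18.5 ratios lay above all E16.5 ratios, with an exact two-sided permutation p of 0.1, the smallest that 3 against 3 libraries can give (0.467 after Benjamini-Hochberg adjustment over the 7). Kcnip2 to the sum of Kcnd2 and Kcnd3 was 9.29, 4.38 and 8.23 in the E16.5 libraries and 13.1, 9.04 and 19.0 in those of E18.5. Here E18.5 replicate 2 fell just below E16.5 replicate 1 (exact permutation p = 0.2, adjusted 0.467).

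The remaining ratios overlapped between stages. Kcnj5 to Kcnj3 was 1.499 ± 0.410 and 1.85 ± 0.287 at E16.5 and E18.5, and Kcnj11 to Kcnj8 was 1.91 ± 0.480 and 2.39 ± 0.0404 (SD over 3 libraries). Kcnh2 to Kcnq1 was 4.20 ± 0.631 and 3.98 ± 0.837. Kcnj2 to the sum of Kcnj12, Kcnj4 and Kcnj14 was 2.85 ± 1.13 and 1.898 ± 0.203, so Kcnj2 was the larger part of that current's transcripts in every library. Abcc9 to Abcc8, the sulfonylurea receptor subunits of the ATP-sensitive channel, was 1.39 ± 0.945 and 0.958 ± 0.2996. The exact permutation p of these 5 ran from 0.2 to 0.9, and E16.5 replicate 2 had the highest Abcc9 to Abcc8 ratio (2.47) and the lowest Kcnj11 to Kcnj8 ratio (1.45).

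**Figure D4:**
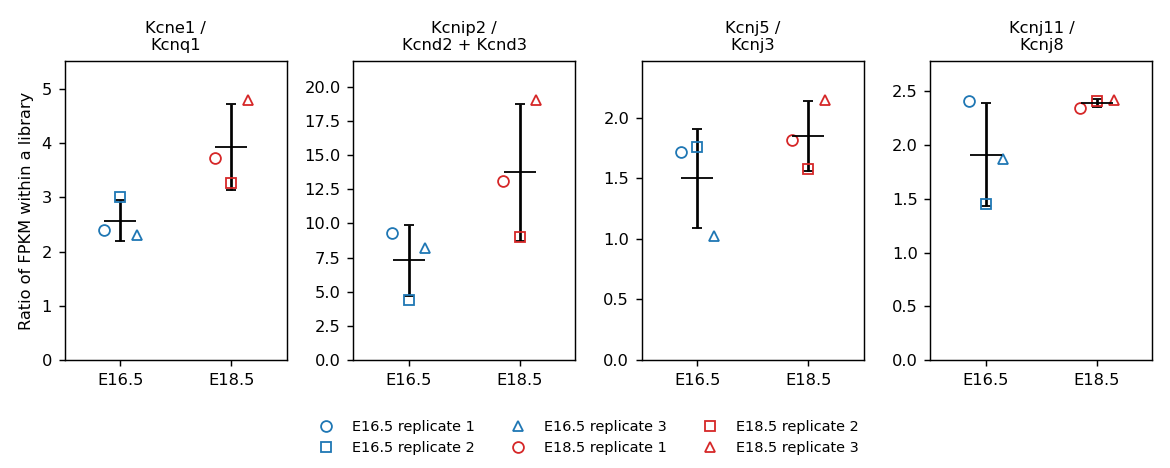
Ratio of FPKM within each library for 4 pairs of channel genes; symbols are libraries, lines means and bars SD over 3 libraries. Only the ratio of Kcne1 to Kcnq1, among the 4 shown, has every E18.5 library above every E16.5 library.

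Partners and regulators of these channels outside the Kcn family numbered 24, of which 22 were tested, and 0 passed adjustment in edgeR, with 11 higher and 11 lower and a median log2 change of -0.030. Lrrc26 and Lrrc52, subunits of the large-conductance channel, were too low to be tested. At an unadjusted p under 0.05 1 was lower and 0 higher. That gene was Irx5, a homeobox factor that represses Kcnd2 in the ventricle wall, at 34.6 ± 3.49 and 27.0 ± 3.86 CPM (log2 change -0.36 ± 0.15, edgeR adjusted p = 0.503). Among the next by p were Dlg4 (-0.37) and the scaffolds and G-protein genes Gnb5 (0.33), Rgs4 (0.78) and Cav3 (0.35), on the log2 scale of the difference. Abcc8 was at 101, 53.6 and 88.3 CPM in the E16.5 libraries and 108, 80.8 and 90.9 CPM in those of E18.5. Abcc9 was at 71.5, 137 and 94.4 CPM in the E16.5 libraries and 70.2, 85.9 and 114 CPM in those of E18.5. E16.5 replicate 2 was lowest for Abcc8 and highest for Abcc9 among the 6 libraries. The transmembrane partners of Kcnd pores were low, Dpp6 at 1.75 ± 0.595 and 2.03 ± 0.822 CPM and Dpp10 at 0.221 ± 0.0718 and 0.378 ± 0.286 CPM.

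Markers of other cells in the heart give the setting of these values. Ventricular markers summed to 5861 to 6656 CPM at E16.5 and 6610 to 7716 CPM at E18.5, and cardiomyocyte markers to 28126 to 35430 and 31952 to 38378 CPM. Such sums mostly reflect the most abundant markers. Of the 4 ventricular markers, 2 were higher and 2 lower at E18.5, with a median log2 change of 0.019. At an unadjusted p under 0.05 in edgeR, 1 of them was lower and 0 higher. The sum of the epicardial markers was higher in every E18.5 library, at 86.6 to 101 and 146 to 197 CPM. Krt19 passed adjustment and 4 of 6 were higher at an unadjusted p under 0.05, while Upk3b overlapped between stages. Autonomic neuron markers, which bear on the low channels best known from nerve, summed to 11.9 to 16.3 and 12.4 to 24.1 CPM. Of their defining genes, Th was at 0.0728 and 0.0347 CPM on average at E16.5 and E18.5. Schwann cell markers summed to 27.3 to 32.9 and 23.7 to 28.3 CPM, with Foxd3 at 0 in every E16.5 library. Pacemaker and conduction markers summed to 34.4 to 41.9 and 29.9 to 37.1 CPM. Of these 5 markers, 3 were higher and 2 lower, with 1 lower and 0 higher at an unadjusted p under 0.05 in edgeR. Endothelial markers summed to 500 to 603 and 599 to 655 CPM, fibroblast markers to 1205 to 2050 and 2116 to 2774, macrophage markers to 42.6 to 55.2 and 46.2 to 68.6, erythroid markers to 7260 to 17707 and 7060 to 16079, and immediate early genes to 87.1 to 90.4 and 84.9 to 104 CPM. The part of these cells in the channel values was not tested.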

How the data were processed

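Per the labels' protocols, oligo(dT)-selected RNA was made into dUTP-stranded libraries with molecular identifiers and sequenced in pairs. The submitters' processing notes list the build mm9 and the tools StringTie 1.3.4d, HISAT2 2.0.4, cutadapt 1.9 and UMI-tools, without roles. The authors deposited 1 table with an estimated count and an FPKM value per gene and library. Estimated counts are whole numbers and were used as deposited. The sources used here do not say if counting used strand or molecular identifiers. None of the 70 members had its deposited coordinates in GENCODE M21 (GRCm38), so positions come from that release by Ensembl identifier.

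Stages were compared over 19959 genes with edgeR 4.0.16 in R 4.3.3 (filterByExpr, TMM, quasi-likelihood test, stage as the only term, two-sided). P-values were adjusted over all tested genes (Benjamini-Hochberg), with a threshold of 0.05. Each SE was derived as the log2 change over the root of its F statistic. The fit was tested on simulated data. DESeq2 1.42.0 and limma 3.58.1 (pseudocount 0.1) were alternatives. Overlaps were taken from exons, and copies from a search at 95% identity over at least 300 bases. Members, lists and tests were chosen with earlier results of these data known. Named members were all those of the listed heart currents, the 10 others with the smallest p and the 5 others with the highest FPKM, and of the partners the 6 with the smallest p and Abcc8, Abcc9, Dpp6 and Dpp10. Members outside this rule were named after their values were seen. A few genes that these rules include are not reported here by name.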

Additional observations from a re-analysis of the deposited data

How the results depend on the processing

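Among the 13 alternatives, members passed adjustment in 2: there were 3 with DESeq2 and 1 with the mitochondrial share as a term. Leaving out 1 library at a time gave 0 throughout. Members at an unadjusted p under 0.05 numbered 7 to 17 when 1 library was left out, where 5.57% to 23.4% of all genes had such a p, and those higher at E18.5 numbered 5 to 12, both largest without E16.5 replicate 2. The cause was not tested. Partner genes passing adjustment numbered 0 throughout. Of the 53 genes chosen by the naming rule, 38 kept the sign of their log2 change under all 13 alternatives, Kcnip2, Kcnt2, Kcnt1, Kcne1, Kcna5, Kcnq5, Kcnn2 and Kcns1 among them. Kcnip2 ran from 0.77 to 1.14 and Kcnt2 from 0.95 to 1.17. The 15 that changed sign were not called in any fit. With limma on FPKM, Kcnd2 was at 0.11, Kcnd3 at 0.071, Kcnh2 at 0.031 and Kcnip3 at 0.052. With the mitochondrial share as a term, Kcnq1 was at -0.047, Kcng2 at -0.025 and Kcnip3 at 0.019. Kcng2 was at -0.0076 with DESeq2, -0.0071 with RLE scaling and -0.0089 without mitochondrial genes. When 1 library was left out, the log2 change ran from -0.10 to 0.29 for Kcnj2, -0.10 to 0.18 for Kcnj3, -0.34 to 0.016 for Kcnj8, -0.28 to 0.37 for Kcnd2, -0.18 to 0.22 for Kcnd3, -0.076 to 0.095 for Kcnq1, -0.81 to 0.18 for Kcnk1, -0.39 to 0.46 for Kcnmb1, -0.11 to 0.086 for Kcng2, -0.22 to 0.060 for Kcnip3, -0.022 to 0.38 for Abcc8, -0.37 to 0.12 for Abcc9, -0.16 to 0.48 for Dpp6 and -0.020 to 1.14 for Dpp10. With the replicate number as a block, 0 members passed and 12 had an unadjusted p under 0.05 (17.1%, against 12.8% of all genes in the same fit), with Kcnd2 at 0.078 and Kcng2 at -0.0062. Deviations of same-numbered libraries correlated at 0.283, 0.372 and -0.0811. E16.5 replicates 1 and 2 correlated best with the E18.5 library of the same number, and E16.5 replicate 3 with E18.5 replicate 1 (0.283). Deviations were taken from the mean of only 3 libraries, so these values cannot decide if the numbers pair the libraries. Below about 1 CPM the SE of a log2 change was mostly above 0.4, so differences of that size were not detectable there.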
